A study of Mus musculus with 12 samples.

Results

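The STAT genes encode signal transducers and activators of transcription, the transcription factors that carry cytokine and hormone signals from receptors at the cell surface to the nucleus. The members were the rows of the liver count table whose Ensembl identifier maps to a STAT gene symbol in the GENCODE vM1 annotation of the mouse genome build mm9. That annotation holds 7 such genes, and 4 of them have a row among the 51609 of the table: Stat3, Stat5a, Stat5b and Stat6. The other members of the family were not analysed here.

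The livers came from 4 groups of 3 C57BL/6 mice, each mouse giving 1 RNA-seq library. One pair of groups was wild-type and the other pair carried a knockout of Rela and Stat3, written RelaΔhepStat3Δhep. Within each pair, 1 group drank water and the other drank 2% DSS (dextran sodium sulphate, a polysaccharide that injures the colon and gives colitis) for 6 days. The Cre recombinase that deletes the floxed alleles in the RelaΔhepStat3Δhep mice is driven by the albumin promoter, so the deletion is confined by design to hepatocytes, and the Kupffer, endothelial, stellate and immune cells of these livers keep both genes. The wild-type mice were littermates without Cre, whose floxed alleles are those of the Rela fl/fl, Stat3 fl/fl or Rela fl/fl Stat3 fl/fl strains. Mice were 5 to 7 weeks old per the study's methods. Whole liver was sequenced, so fewer cells of a type and less RNA per cell cannot be told apart.

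In the textbook pathway a cytokine joins its receptor chains, Janus kinases (JAKs) bound to those chains phosphorylate a STAT, and a pair of phosphorylated STATs enters the nucleus and binds palindromic DNA elements of the type TTCNNNGAA. In hepatocytes STAT3 serves interleukin-6 and drives the acute-phase response, in which the liver secretes proteins such as serum amyloid A, fibrinogen and haptoglobin. STAT5A and STAT5B serve growth hormone, STAT6 serves interleukin-4 and interleukin-13, and STAT4 serves interleukin-12. Activation itself is a phosphorylation and cannot be read from RNA.

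Stat3 (ENSMUSG00000004040) lies on the reverse strand of mm9 at chr11:100746412-100800854. Stat5a (ENSMUSG00000004043) lies beside it on the forward strand at chr11:100720665-100746483, and Stat5b (ENSMUSG00000020919) on the reverse strand at chr11:100642045-100712038. Together they fill a stretch of 158.8 kb in which Stat5a and Stat5b are 8.6 kb apart. Stat6 (ENSMUSG00000002147) is on the forward strand of another chromosome, at chr10:127080042-127098013. The 3' ends of Stat3 and Stat5a share 72 exonic bases, which are 0.756% of the exon sequence of Stat3 and 1.01% of that of Stat5a. The closest relatives in sequence are Stat5a and Stat5b: of all stretches of 50 bases in the coding transcripts of Stat5a, 14.7% also occur in those of Stat5b, and of stretches of 100 bases 6.31% do. Reads from those stretches could be divided between both genes by the authors' counting, so their single values are less certain than those of Stat3 and Stat6. In this comparison the transcripts of Stat3 and Stat6 shared no stretch of 50 bases with another of the 4 genes. The 72 bases common to Stat3 and Stat5a are on opposite strands. The strand setting of the counting is not given, so reads from them could also be divided.

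The promoter of Stat3 is shown because Stat3 was the member that varied between livers, and that of Stat6 because it is a member that varied little. Both are the 250 bases before the RefSeq start site (promoter table built on GRCm38.p6, each stretch found once and without a mismatch in mm9), written 5′ to 3′ on the gene's own strand. Capitals mark the GC box GGGCGG and the CCAAT box, on either strand, so that ATTGG is a CCAAT box on the other strand. The Stat3 stretch is chr11:100800855-100801104 on the reverse strand, and the Stat6 stretch is chr10:127079792-127080041 on the forward strand.
Stat3: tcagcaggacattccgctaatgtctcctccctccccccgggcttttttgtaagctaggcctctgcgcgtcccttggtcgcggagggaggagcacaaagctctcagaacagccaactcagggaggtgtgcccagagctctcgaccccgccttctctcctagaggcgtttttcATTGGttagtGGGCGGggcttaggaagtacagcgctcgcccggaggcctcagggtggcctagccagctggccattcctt
Stat6: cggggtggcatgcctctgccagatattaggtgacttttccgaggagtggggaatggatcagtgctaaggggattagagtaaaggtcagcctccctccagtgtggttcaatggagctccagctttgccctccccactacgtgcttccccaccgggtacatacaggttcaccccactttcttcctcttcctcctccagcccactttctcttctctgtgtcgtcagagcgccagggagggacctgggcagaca

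The Stat3 stretch holds 1 GC box, starting at position -69 (counted from -1 at the last base before the start site), and a CCAAT box at -79. The Stat6 stretch holds neither. Its GC content was 56.8% and that of Stat3 60.8%, against a median of 52.4% over all 32851 promoter stretches of the table. RefSeq windows of 300 bases (250 before and 50 after the start) were searched on both strands for the STAT element TTCNNNGAA, which 8.3% of all windows hold. None of the 6 windows of Stat3, Stat5a, Stat5b and Stat6 holds it, which says only that these letters are not within those bases. For comparison, GGGCGG was found in 35.7% and CCAAT in 37.4% of all windows.

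Libraries held between 65879529 and 82850098 estimated counts, and every STAT gene had between 894 and 20777 counts in each of them. The levels below are CPM, counts relative to the size of the library, with library sizes scaled by TMM, a method that matches the bulk of genes between libraries. The tissue label was borne out by 10 of 10 hepatocyte markers, whose summed CPM ran from 86227 to 171220, albumin leading. Xist, the RNA of the inactive X chromosome, stood at 903 to 1283 CPM in all 3 DSS-treated RelaΔhepStat3Δhep mice and at 1143 in the third untreated wild-type mouse, and at no more than 29.0 in the other 8, while the summed Y-linked transcripts were at most 0.120 CPM in those DSS-treated RelaΔhepStat3Δhep mice, 30.1 in that wild-type mouse and 175 to 241 in the other 8. In the RelaΔhepStat3Δhep mice, treatment and these sex-linked transcripts cannot be told apart, and nor can genotype and these transcripts after DSS, since the DSS-treated wild-type mice had at most 11.9 CPM of Xist and 205 to 228 CPM of Y-linked transcripts. This holds for every difference between genotypes after DSS given below.

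Stat3 is both a member and a deleted gene, and its level was examined first. It stood at 45.7, 138 and 87.6 CPM in wild-type mice on water and at 63.2, 330 and 307 CPM in those on DSS. In mice labelled RelaΔhepStat3Δhep it stood at 45.9, 46.7 and 49.7 CPM without treatment and at 43.0, 58.0 and 74.8 CPM with DSS. The 6 libraries labelled RelaΔhepStat3Δhep thus lay in a narrow band from 43.0 to 74.8 CPM, and none of them reached the level of the other 4 wild-type mice. The first untreated and the first DSS-treated wild-type mouse lay inside that band, so the gene did not separate the labels, and the groups overlapped in each of the 4 group comparisons. Rela, the NF-kappaB subunit deleted in the same hepatocytes, did not separate them either, with 39.8 to 55.5 CPM in the 6 wild-type and 39.5 to 62.3 CPM in the 6 other libraries. The table holds 1 value per gene, the deleted exons are not given in the sources used here, and a transcript that lost exons is still counted, as are transcripts of cells other than hepatocytes.

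**Figure D1:**
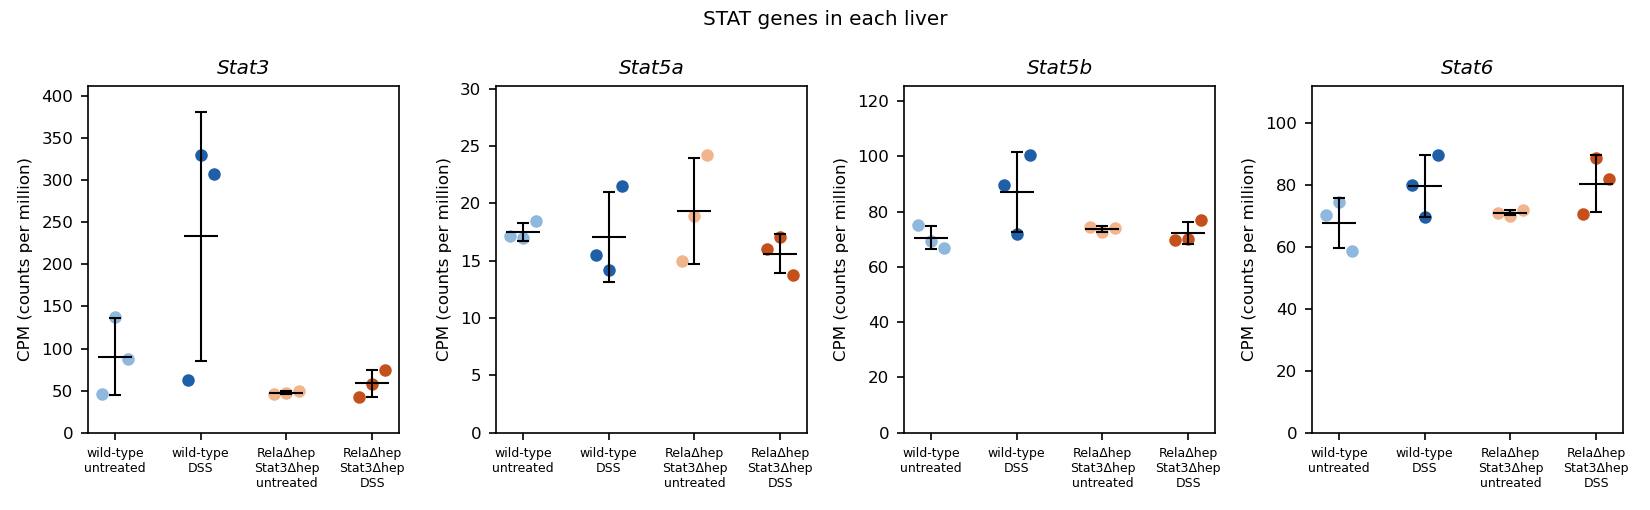
CPM (vertical axes, linear, starting at 0) of Stat3, Stat5a, Stat5b and Stat6 in each liver, by group; each point is 1 mouse, the horizontal line is the group mean and the bars are 1 SD (n = 3). Stat3 spreads from 45.7 to 330 CPM in wild-type mice and from 43.0 to 74.8 CPM in mice labelled RelaΔhepStat3Δhep, while the groups of the other 3 genes lie at like levels.

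Genotype gave the largest Stat3 difference after DSS. The mean was 58.6 ± 15.9 CPM (SD, n = 3) in RelaΔhepStat3Δhep mice against 233 ± 148 CPM (SD, n = 3) in wild-type mice, a fold of 0.251 and a log2 difference of -1.99 with a standard error of 0.56 and a 95% interval from -3.24 to -0.74. Its unadjusted p was 0.00517 and its adjusted p 0.175 in the edgeR fit, so it was not called, and after DSS the genotypes also differed in sex-linked transcripts. Of all tested genes 0.334% were called in this comparison. The call turned on the library of the first DSS-treated wild-type mouse: without it the log2 difference was -2.44 and the adjusted p 0.00825, and the DESeq2 test on all libraries gave an adjusted p of 0.0218. Without the second DSS-treated wild-type mouse the log2 difference was -1.66, the smallest on leaving out 1 library.

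In untreated mice Stat3 averaged 47.4 ± 1.98 CPM (SD, n = 3) in the RelaΔhepStat3Δhep group and 90.3 ± 46.0 CPM (SD, n = 3) in the wild-type group. The log2 difference was -0.93 with a standard error of 0.55 (adjusted p = 0.542), in a comparison where 0.0623% of all genes were called. Its 95% interval ran from -2.14 to 0.29 and so covered no difference as well as one larger than that after DSS. Leaving out 1 library at a time gave -1.25 to -0.49, the latter without the second untreated wild-type mouse and the former without the first.

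In wild-type liver the mean of Stat3 was 90.3 CPM on water and 233 CPM on DSS, a log2 difference of 1.37 with a standard error of 0.55, an interval from 0.14 to 2.60 and an adjusted p of 0.288; 0.685% of genes were called there. One DSS-treated mouse, with 63.2 CPM, lay below the untreated mean, and without that library the difference was 1.82 and passed the test (adjusted p = 0.0344). Without the second DSS-treated wild-type mouse it was 1.02. In mice labelled RelaΔhepStat3Δhep the mean went from 47.4 to 58.6 CPM with an interval of the log2 difference from -0.90 to 1.51 (0.31 with a standard error of 0.54, adjusted p = 0.780), in a comparison with 7.02% of genes called. That value was 0.093 without the third and 0.47 without the first of the DSS-treated mice. The test of the difference between these DSS responses gave -1.06 with a standard error of 0.77 and an adjusted p of 0.518, with 0.408% of all genes called, so the responses were not shown to differ. Exact permutation tests of Stat3 gave two-sided p-values between 0.2 and 0.4 over the 4 group comparisons, where 3 mice against 3 allow no p below 0.1.

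Stat5b, the more abundant of the growth hormone STATs in these livers, stood at 75.2, 69.5 and 66.9 CPM in wild-type mice on water and at 89.7, 71.7 and 100 CPM in those on DSS. In RelaΔhepStat3Δhep mice it stood at 74.3, 72.6 and 74.2 CPM untreated and at 69.7, 70.1 and 77.0 CPM after DSS. Only the first and the third DSS-treated wild-type mouse exceeded 77.0 CPM. The wild-type DSS response was 0.31 on the log2 scale with a standard error of 0.13 and an interval from 0.03 to 0.59, with an unadjusted p of 0.0349 and an adjusted p of 0.302. After DSS the genotypes differed by -0.27 with a standard error of 0.13 (adjusted p = 0.366), and the difference between the DSS responses was -0.34 with a standard error of 0.18 (adjusted p = 0.381). Leaving out 1 library gave 0.19 to 0.43, -0.395 to -0.16 and -0.47 to -0.22 for these values, in that order.

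Stat5a, which shares much of its sequence and its hormone signals with Stat5b, was the lowest member in every library. It stood at 17.2, 16.99 and 18.4 CPM in wild-type mice on water and at 15.5, 14.2 and 21.5 CPM in those on DSS, and at 14.97, 18.9 and 24.2 CPM and 15.99, 17.1 and 13.7 CPM in the corresponding RelaΔhepStat3Δhep groups. Its log2 differences ran from -0.31 to 0.14 over the 5 comparisons, and the interval of its DSS response in RelaΔhepStat3Δhep mice reached from -0.72 to 0.10. All its groups overlapped.

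Stat6, the factor of interleukin-4 signalling, stood at 70.3, 74.3 and 58.7 CPM in wild-type mice on water and 80.0, 69.6 and 89.5 CPM in those on DSS, and at 71.0, 70.1 and 71.9 CPM and 70.7, 88.5 and 82.0 CPM in the corresponding RelaΔhepStat3Δhep groups. The means after DSS were 79.7 and 80.4 CPM in the 2 genotypes, and their log2 difference of 0.01 had an interval from -0.28 to 0.31. The DSS responses were 0.23 in wild-type and 0.18 in RelaΔhepStat3Δhep mice, each with a standard error of 0.14 (adjusted p = 0.470 and 0.459). Leaving out 1 library gave 0.14 to 0.32 in the former and 0.11 to 0.25 in the latter. Groups of Stat6 overlapped in every comparison.

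In the edgeR fit none of the 4 STAT genes was called in any of the 5 comparisons. At an unadjusted p under 0.05 the count was 2 genes in the DSS comparison of wild-type mice (Stat3 and Stat5b) and 1 between genotypes after DSS (Stat3), shares of all genes being 14.5% and 14.3%, and DESeq2 called 1, Stat3 between genotypes after DSS. All 4 overlapped between groups in the 4 group comparisons, where 18.7% (DSS in wild-type), 31.8% (DSS in RelaΔhepStat3Δhep), 20.2% (genotype, untreated) and 16.8% (genotype, DSS) of all genes did not. The members differed in precision: in those 4 comparisons the standard errors of Stat3 were 0.54 to 0.56 and those of the other 3 genes 0.13 to 0.19. Comparisons here share groups of mice and so are not independent of each other.

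**Figure D2:**
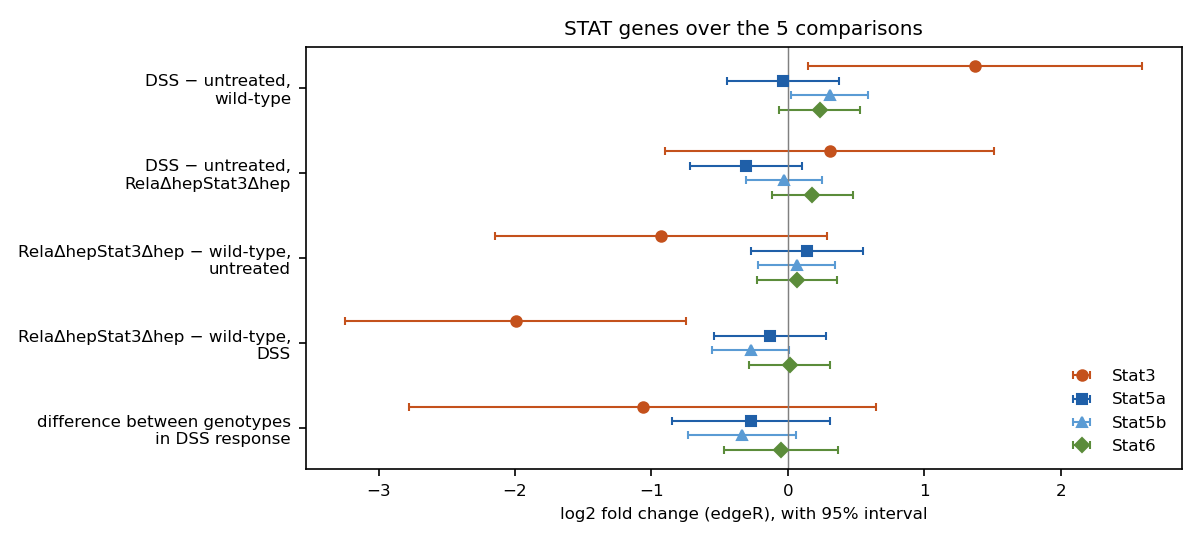
Log2 fold changes from edgeR (horizontal axis) of the 4 STAT genes in the 5 comparisons (vertical axis); points are estimates from 3 mice a group and bars are 95% intervals. The Stat3 estimate between genotypes after DSS is -1.99 with a bar from -3.24 to -0.74, and the estimates of the other 3 genes lie between -0.34 and 0.31.

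Between the lowest and the highest of the 12 libraries Stat3 varied 7.67-fold, and Stat5a, Stat5b and Stat6 varied 1.76-fold, 1.499-fold and 1.52-fold. The SD of log2 CPM of Stat3 over the 12 livers was 1.04, larger than that of 98.1% of the tested genes with a symbol, and those of Stat5b and Stat6 were 0.17 each, larger than that of 14.1% and 14.6%. Within groups, Stat3 spread most in wild-type mice, with an SD of 1.34 on DSS and 0.79 on water. In the corresponding RelaΔhepStat3Δhep groups its SD was 0.40 and 0.06. As a description over 12 livers that share their groups, Stat5b and Stat6 went together most (Pearson r = 0.62), and Stat3 had r = 0.35 with Stat5b, 0.20 with Stat6 and -0.01 with Stat5a.

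Levels can be compared between genes only per length, and CPM were divided by the kilobases covered by the exons of each gene. Without treatment, the level per kilobase in RelaΔhepStat3Δhep mice was 16.1 ± 0.21 for Stat6, 13.3 ± 0.18 for Stat5b, 4.98 ± 0.21 for Stat3 and 2.71 ± 0.65 for Stat5a (CPM per kb, SD, n = 3). The same order, with no overlap between neighbours, held in DSS-treated RelaΔhepStat3Δhep mice. In untreated wild-type mice Stat6 (15.4 ± 1.84), Stat5b (12.7 ± 0.76) and Stat3 (9.48 ± 4.83) overlapped with their neighbours and all 3 exceeded Stat5a (2.46 ± 0.11). After DSS wild-type mice had Stat3 first in the order at 24.5 ± 15.5, but its range, from 6.64 to 34.6, covered that of Stat6 (18.1 ± 2.26) and of Stat5b (15.8 ± 2.61). Per kilobase of the longest transcript instead, Stat3 stood at 14.9 ± 7.62 in untreated wild-type mice and passed ahead of Stat5b, with which it still overlapped, and the order in the other 3 groups did not change.

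As a share of the 4 genes' summed CPM per kb, Stat3 made up 13.0%, 31.2% and 24.7% in untreated wild-type mice and 15.4%, 52.9% and 43.8% in those given DSS. It made up 13.2% to 13.6% in untreated and 12.8%, 14.8% and 18.6% in DSS-treated RelaΔhepStat3Δhep mice. The first wild-type mouse of either treatment had the make-up of the RelaΔhepStat3Δhep livers. The remaining 4 wild-type livers all had larger Stat3 shares than any other liver.

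**Figure D3:**
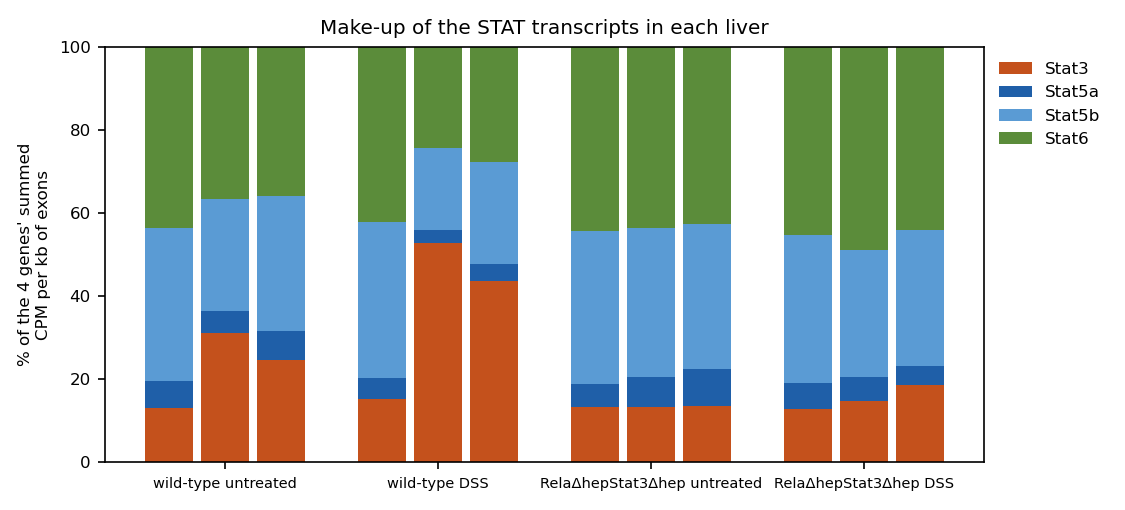
Share of each STAT gene in the summed CPM per kb of exons of the 4 genes (vertical axis, %), 1 bar per liver, grouped by genotype and treatment. The Stat3 part covers 12.8% to 18.6% in the 6 livers labelled RelaΔhepStat3Δhep, 13.0% and 15.4% in the first mouse of each wild-type group, and 24.7% to 52.9% in the other 4.

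Of 14420 genes with a symbol compared over the 12 livers, those whose log2 CPM followed Stat3 most closely were Atp11a (Pearson r = 0.949), Slc41a2 (0.947) and Nfasc (0.946). Atp11a, a phospholipid flippase of the plasma membrane, was at 109 and 86.6 CPM in the second and the third DSS-treated wild-type mouse and between 9.13 and 17.9 CPM in the other 10. Slc41a2, a magnesium transporter, had 271 and 189 CPM in those mice, 55.2 CPM in the second untreated wild-type mouse and at most 28.2 CPM elsewhere. Azi1 was closest to Stat5a (0.938), and Wdr91 was also among the 3 closest (0.883). For Stat5b the closest were Zkscan2 (0.877), Mtor (0.851), the growth-regulating kinase, and Asb8 (0.850). Their Spearman rank correlations with Stat5b were 0.867, 0.392 and 0.615, and Zkscan2 stood at only 0.041 to 0.251 CPM. For Stat6 the closest were Mta3 (0.949), 9030624J02Rik (0.936) and Ddx24 (0.928).

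The cytokines that engage STATs were scarce in liver RNA: 26 of 28 listed ligand genes had a row and 11 were abundant enough to test. None was called in wild-type mice by edgeR or DESeq2, with 1 of the 11 at an unadjusted p under 0.05. Of all genes edgeR called 0.685% there, and 14.5% had an unadjusted p under 0.05. Of the 11, 2 were called higher with DSS in RelaΔhepStat3Δhep mice, Il6 and Il15, where 4.57% of all genes rose and 2.46% fell. The median log2 change was 0.73 over the 11 and -0.01 over all genes. Leaving out 1 library moved that ligand median between 0.49 and 1.24. Il6, the ligand of the STAT3 pathway, had no count in 5 of the 6 untreated livers and 0.082 CPM in the sixth, where a count of 0 allows up to 0.0359 to 0.0478 CPM in these libraries. After DSS Il6 stood at 0.433, 0.462 and 0.222 CPM in wild-type and at 0.428, 0.323 and 0.141 CPM in RelaΔhepStat3Δhep mice. It was abundant enough to test only through these DSS-treated livers, so its tests of DSS add nothing to the values. The edgeR test called it in RelaΔhepStat3Δhep mice (adjusted p = 0.0262) and not in wild-type mice (adjusted p = 0.173). The test of the difference between these responses had an adjusted p of 0.377. Il15, a T and NK cell cytokine, rose by 1.08 ± 0.27 (log2, SE) in RelaΔhepStat3Δhep mice, from 1.19 to 1.59 CPM up to 2.80 to 3.64 CPM (adjusted p = 0.0326). The Il15 call was lost in each of the 6 fits that left out 1 library of these groups (adjusted p from 0.0560 to 0.137), and that of Il6 in each but the fit without the third DSS-treated mouse (0.0579 to 0.0877).

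Among receptor genes, 25 of 33 could be tested. In RelaΔhepStat3Δhep mice given DSS 2 rose and 1 fell, where 4.57% and 2.46% of all genes did, and none was called in the other comparisons, although 12 had an unadjusted p under 0.05 in wild-type mice (14.5% of all genes had), where DESeq2 called 7 among 869 genes in all. Ghr, the growth hormone receptor that acts through the STAT5 proteins, fell from 925, 867 and 739 CPM to 439, 372 and 410 CPM with DSS in RelaΔhepStat3Δhep mice (log2 change -1.05 ± 0.18 SE, adjusted p = 0.00632). In wild-type mice it went from 779, 804 and 714 CPM to 449, 390 and 577 CPM, also without overlap but short of the threshold (-0.70 ± 0.18 SE, adjusted p = 0.0896). The interferon-gamma receptor chain Ifngr2 rose by 1.13 ± 0.19 (adjusted p = 0.00599) and the neutrophil growth factor receptor Csf3r by 1.58 ± 0.33 (adjusted p = 0.0152) in RelaΔhepStat3Δhep mice. Without the second or the third untreated or the first DSS-treated of these mice the Csf3r call was lost (adjusted p = 0.0759, 0.0586 and 0.0629).

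The interleukin-6 receptor chains did not pass the test in any comparison. Il6ra, which binds the cytokine, was at 82.9, 29.1 and 56.5 CPM in wild-type livers on water and 111, 99.8 and 84.3 CPM in those on DSS, and at 91.1, 149 and 88.5 CPM and 52.0, 72.7 and 96.9 CPM in the RelaΔhepStat3Δhep groups. Il6st, the shared signalling chain gp130, went from 256, 291 and 267 CPM to 367, 513 and 433 CPM with DSS in wild-type mice (0.69 ± 0.17 SE on the log2 scale, adjusted p = 0.0804), and untreated RelaΔhepStat3Δhep mice had 368, 393 and 397 CPM. In the wild-type mice the Il6st values did not overlap between treatments. Ifnar1, a chain of the type I interferon receptor, ranged only from 47.2 to 68.9 CPM over the 12 livers, and Ifngr1, of the interferon-gamma receptor, from 18.3 to 35.5 CPM (adjusted p = 0.0501 for DSS in RelaΔhepStat3Δhep mice).

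Of the Janus kinases, which phosphorylate STATs, 3 were tested and 1 was called, for DSS in RelaΔhepStat3Δhep mice, where 4.57% of all genes were called higher. Tyk2, the kinase of the type I interferon receptor, stood at 23.1, 22.9 and 22.8 CPM in untreated RelaΔhepStat3Δhep mice and rose to 35.4, 36.3 and 29.2 CPM with DSS (0.55 ± 0.11 SE, adjusted p = 0.0150). Its call was lost without the second or the third untreated or the first DSS-treated of these mice (adjusted p = 0.0689, 0.0515 and 0.0614). The untreated wild-type mice had 31.5, 28.9 and 32.6 CPM, which did not overlap with the untreated RelaΔhepStat3Δhep mice (adjusted p = 0.187). Jak1 ranged from 171 to 208 CPM and Jak2, the kinase of the growth hormone receptor, from 22.9 to 50.05 CPM, and neither was called.

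Feedback inhibitors of STAT signalling were all present, with 19 of 19 tested. DSS raised 2 of them in wild-type and 5 in RelaΔhepStat3Δhep mice, against 0.453% and 4.57% of all genes called higher, and the median log2 change of the 19 was 0.17 and 0.37, against 0.02 and -0.01 over all genes. Leaving out 1 library moved the wild-type median between 0.099, without the third DSS-treated mouse, and 0.31, without the first untreated one, with 0.27 without the second DSS-treated one, and the wild-type calls between 0 and 4, the 4 without the first mouse on DSS. Without that mouse 209 of all genes were called. Socs1, which blocks interferon-activated JAKs, went from 0.105, 0.219 and 0.347 CPM to 3.00, 1.13 and 0.828 CPM in wild-type mice and from 0.611, 0.524 and 0.715 CPM to 3.68, 3.58 and 4.89 CPM in RelaΔhepStat3Δhep mice. Its rises were 2.89 ± 0.51 (adjusted p = 0.0222) and 2.71 ± 0.48 (adjusted p = 0.00810). With sex read from Xist as a covariate the latter was 1.62 and was not called (adjusted p = 0.543). Usp18, which shuts off the type I interferon receptor, rose by 1.67 ± 0.25 (adjusted p = 0.0101) and 2.93 ± 0.26 (adjusted p = 0.000150). The phosphatases Ptpn6 and Ptprc, the latter being the leukocyte antigen CD45, rose in RelaΔhepStat3Δhep mice by 0.93 ± 0.17 (adjusted p = 0.00867) and 1.26 ± 0.26 (adjusted p = 0.0157). They were not called in wild-type mice, and the test of the difference between these responses had adjusted p-values of 0.265 and 0.308. The wild-type calls of Socs1 and Usp18 were lost in the fit of only the groups compared (adjusted p = 0.173 and 0.0665) and without the second untreated wild-type mouse (0.0864 and 0.0510), and that of Socs1 also without the first (0.0785). In RelaΔhepStat3Δhep mice 1 inhibitor, Usp18, remained called without the second untreated mouse, where 241 of all genes were called.

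Socs3, the inhibitor that STAT3 itself induces, was at 5.56, 5.03 and 5.69 CPM in wild-type mice on water and 8.47, 69.9 and 26.1 CPM in those on DSS. In RelaΔhepStat3Δhep mice it stood at 6.05, 5.01 and 7.42 CPM and at 10.02, 8.43 and 12.2 CPM. Its highest values thus lay in the second and the third DSS-treated wild-type mouse, the libraries with the highest Stat3, and the second untreated wild-type mouse, with 138 CPM of Stat3, had 5.03 CPM of Socs3. The wild-type response was 2.68 ± 0.59 (adjusted p = 0.0749) and that of RelaΔhepStat3Δhep mice 0.73 ± 0.56 (adjusted p = 0.468), with an adjusted p of 0.265 for their difference. With the first of the DSS-treated wild-type mice left out, the response in wild-type mice was 3.14 with an adjusted p of 0.00375. Socs2 and Cish, inhibitors that STAT5 proteins induce, ranged from 7.91 to 75.8 CPM and from 1.13 to 41.0 CPM, overlapped between the treatments in wild-type mice and were not called. Socs2 did not overlap between the treatments in RelaΔhepStat3Δhep mice (43.3, 22.4 and 21.7 against 75.8, 69.4 and 59.0 CPM, adjusted p = 0.243) or between genotypes after DSS, wild-type mice having 29.5, 23.8 and 18.8 CPM (adjusted p = 0.304).

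Genes that interleukin-6 induces through STAT3 could be tested for 23 of 30 listed. In wild-type mice all 23 had higher fitted values on DSS than on water, and the median log2 change was 1.90 against 0.02 over all genes. None of them was called by edgeR, although 18 had an unadjusted p under 0.05, against 14.5% of all genes, and DESeq2 called 14 among 869 genes in all. In RelaΔhepStat3Δhep mice 22 of 23 were higher after DSS with a median of 0.53 against -0.01 over all genes, and 1, Junb, was called, a share near the 4.57% of all genes called higher (2.17 ± 0.50 SE, adjusted p = 0.0311), a call lost in each fit that left out 1 library but that without the second DSS-treated mouse (adjusted p from 0.0783 to 0.125). After DSS, 21 of the 23 were lower in RelaΔhepStat3Δhep than in wild-type mice, with a median of -1.33 against -0.0029 over all genes. None was called by edgeR, 13 had an unadjusted p under 0.05, against 14.3% of all genes, and DESeq2 called 8 among 597 genes in all. In the test of the difference between DSS responses 18 of the 23 fitted values were negative, with a median of -1.27. Leaving out 1 library moved that median between -1.64 and -0.012. None was called by edgeR there (0.408% of all genes were), with 7 at an unadjusted p under 0.05, against 16.3% of all genes. Without treatment 17 of the 23 were lower in RelaΔhepStat3Δhep mice, with a median of -0.29, and none was called (0.0623% of all genes were).

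Relative to untreated wild-type liver, this list's median log2 level was 0.33, 2.76 and 0.71 among wild-type mice on DSS and 0.34, 0.44 and 0.36 in the DSS-treated RelaΔhepStat3Δhep mice. Saa2, a serum amyloid A, stood at 10.1, 23330 and 698 CPM in the DSS-treated wild-type mice against 0.984, 14.6 and 73.1 CPM in the DSS-treated RelaΔhepStat3Δhep mice. The haemoglobin-binding protein haptoglobin (Hp) stood at 1653, 35610 and 8323 CPM in the former and 1236, 1853 and 1702 CPM in the latter, and fibrinogen gamma (Fgg) at 4240, 18945 and 9778 CPM and 4105, 2589 and 3945 CPM. Stat3 itself was at 63.2, 330 and 307 CPM in the same wild-type mice, so that the second and the third mouse had similar Stat3 and very different levels of these transcripts. These 3 examples were chosen after their values were seen. That second mouse also had the highest summed neutrophil markers, 110 CPM against 0.524 to 25.2 CPM in the other 11. None of the 7 tested neutrophil markers was called by edgeR for DSS in either genotype, with 5 in wild-type and 6 in RelaΔhepStat3Δhep mice at an unadjusted p under 0.05, against 14.5% and 24.1% of all genes. Ly6g was at 0 in both untreated groups and Retnlg, Mpo and Elane in untreated RelaΔhepStat3Δhep mice, and their part in the result was not tested. Without the second mouse the median wild-type DSS response of the list was 0.97 and the median genotype difference -0.69, and with the first of these mice left out they were 2.26 and -1.81, with 10 genes called in each. In the fits without the first mouse 209 and 392 of all genes were called.

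Interferon target genes, which interferon receptors induce through JAKs and STATs, had 20 of 30 tested. Nearly the whole list was higher after DSS in both genotypes: the median log2 change was 2.08 for wild-type and 2.70 for RelaΔhepStat3Δhep livers, and 19 of 20 were higher in each. In wild-type mice 4 were called, against 0.453% of all genes called higher, and in RelaΔhepStat3Δhep mice 19, against 4.57%. Xaf1, a pro-apoptotic interferon target, rose from 16.4, 24.8 and 25.8 CPM to 102, 69.7 and 105 CPM in wild-type mice (2.05 ± 0.23 SE, adjusted p = 0.00247) and from 19.9, 13.9 and 16.7 CPM to 113, 151 and 103 CPM in RelaΔhepStat3Δhep mice (2.86 ± 0.24 SE, adjusted p = 0.000150). Irf7, the factor that amplifies interferon production, rose by 2.26 ± 0.30 (adjusted p = 0.00756) and 2.53 ± 0.30 (adjusted p = 0.000957). Mx2 and Cd274, the latter encoding PD-L1, were the other wild-type calls (2.22 ± 0.38 and 1.97 ± 0.36, adjusted p = 0.0238 and 0.0279). The Mx2 call was lost without any 1 of the untreated wild-type mice (adjusted p from 0.0666 to 0.112) and that of Cd274 without the second or the third of them or the third DSS-treated mouse (0.108, 0.127 and 0.0571).

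In RelaΔhepStat3Δhep mice the smallest adjusted p-values after Xaf1 and Irf7 belonged to Isg15, an interferon-induced ubiquitin-like protein, which rose from 5.45, 4.37 and 6.11 CPM to 148, 311 and 114 CPM, and to Ifit1, an interferon-induced RNA-binding protein, which rose from 9.78, 6.59 and 11.3 CPM to 317, 305 and 243 CPM. Ciita, a driver of antigen presentation, was the member not called there (-0.16 ± 0.57, adjusted p = 0.897). Irf1, a transcription factor that interferon-gamma induces, passed narrowly in RelaΔhepStat3Δhep mice (1.35 ± 0.36 SE, adjusted p = 0.0469) and stood at 0.25 ± 0.36 in wild-type mice (adjusted p = 0.811), with an adjusted p of 0.307 for the difference between responses. Its call was lost without the first or the second untreated or the first or the third DSS-treated RelaΔhepStat3Δhep mouse (adjusted p from 0.0904 to 0.164). The call counts depended on the libraries: the wild-type count was 14 without the second DSS-treated mouse, and 2 without the second or the third untreated wild-type mouse. In RelaΔhepStat3Δhep mice it was 10 without the second untreated mouse and 14 to 17 without any other. Counts over all genes in these fits ran from 35 to 209 for wild-type and from 241 to 838 for RelaΔhepStat3Δhep mice.

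Between genotypes after DSS, 19 of the 20 interferon targets were higher in RelaΔhepStat3Δhep mice, with a median log2 difference of 1.03, and 1 was called, against 0.187% of all genes called higher. Cxcl9, a T cell attractant induced by interferon-gamma, stood at 103, 132 and 63.7 CPM in RelaΔhepStat3Δhep and at 26.9, 5.54 and 13.2 CPM in wild-type mice (2.71 ± 0.47 SE, adjusted p = 0.0491). Its call was lost without the third wild-type mouse or any 1 of the RelaΔhepStat3Δhep mice (adjusted p from 0.0910 to 0.176). Without the first wild-type mouse 6 of the 20 were called, where 392 of all genes were called. In the test of the difference between DSS responses 19 of the 20 fitted values were positive with a median of 1.13. None was called by edgeR (0.408% of all genes were), with 7 at an unadjusted p under 0.05 (16.3% of all genes). DESeq2, which called more of all genes there than edgeR (totals in the closing section), called 2.

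The DSS-treated RelaΔhepStat3Δhep mice were the group with high Xist and almost no Y-linked transcripts, and with sex read from Xist as a covariate 0 of the 20 interferon targets and 4 of all genes were called for DSS in these mice, while all 20 fitted values were positive with a median of 2.49. Markers of Kupffer cells and other macrophages moved with the interferon targets as well: 9 of the 10 tested rose with DSS in RelaΔhepStat3Δhep mice, against 4.57% of all genes, the summed level of the list going from 421 to 470 CPM without to 842 to 1330 CPM with DSS, and none was called in wild-type mice by edgeR (8 at an unadjusted p under 0.05, against 14.5% of all genes) or DESeq2. Leaving out 1 library of these groups gave 0 of the 10 without the second or the third untreated RelaΔhepStat3Δhep mouse, 1 or 2 without the first untreated or the first or the second DSS-treated one, and 8 without the third DSS-treated one. The wild-type sums were 342 to 663 and 521 to 1111 CPM. Summed markers of T and NK cells were 7.26 to 9.94 CPM and 13.8 to 25.3 CPM in the RelaΔhepStat3Δhep groups and 7.497 to 16.99 CPM and 3.49 to 11.9 CPM in the wild-type groups. Monocyte and dendritic cell sums were 10.1 to 12.1 CPM and 20.7 to 52.8 CPM in the RelaΔhepStat3Δhep groups, with 5 of 7 markers not overlapping (31.8% of all genes did not), and B and plasma cell sums were 4.55 to 5.45 CPM and 6.32 to 15.8 CPM. Of the 10 hepatocyte markers 2 fell with DSS in these mice, Cyp2e1 (-2.10 ± 0.46, adjusted p = 0.0193) and Hnf4a (-0.70 ± 0.18, adjusted p = 0.0325), where 2.46% of all genes fell, and their sums overlapped, at 137022 to 152242 CPM without and 134378 to 171220 CPM with DSS. No marker of macrophages, monocytes and dendritic cells, lymphocytes or hepatocytes was at 0 in all mice of a group. Their part in the result was not tested.

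**Figure D4:**
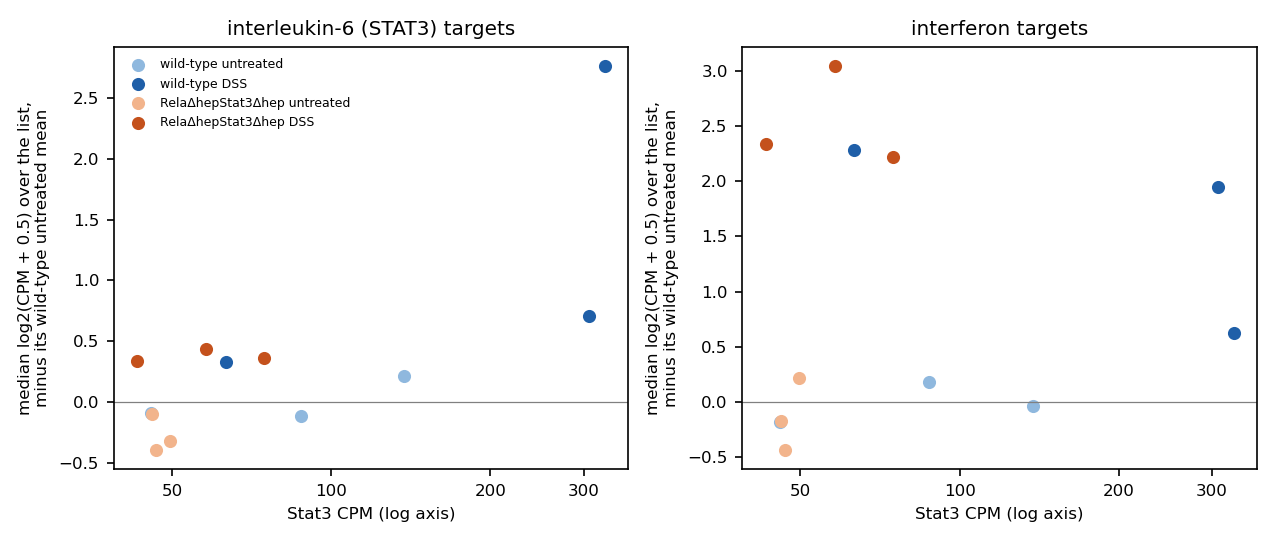
Median log2(CPM + 0.5) over the 23 tested interleukin-6 (STAT3) targets, left, and the 20 tested interferon targets, right, each relative to the mean of untreated wild-type mice (vertical axes), against Stat3 CPM (horizontal axes, log scale); each point is 1 liver and colours mark the groups. At 330 CPM of Stat3 a wild-type mouse has a median of 2.76 on the left and 0.63 on the right, while the DSS-treated RelaΔhepStat3Δhep mice, at 43.0 to 74.8 CPM of Stat3, have 0.34 to 0.44 on the left and 2.22 to 3.04 on the right.

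Set beside Stat3, the interferon target medians in the DSS-treated wild-type mice were 2.28, 0.63 and 1.95, in the order of the mice. The mouse with the highest interleukin-6 target median, the second, had the lowest interferon target median of all 6 DSS-treated mice. The first DSS-treated wild-type mouse, whose Stat3 lay within the range of the RelaΔhepStat3Δhep mice, had medians of 0.33 and 2.28, which lie at or beside those of the DSS-treated RelaΔhepStat3Δhep mice (0.34 to 0.44 and 2.22 to 3.04). These are descriptions of single livers with no test.

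For the growth hormone targets of the STAT5 proteins, 14 of 25 listed genes were tested. In wild-type mice 10 of the 14 were lower after DSS, with a median log2 change of -0.36 (-0.86 to -0.27 on leaving out 1 library, the lowest without the third DSS-treated mouse), and none was called by edgeR (3 at an unadjusted p under 0.05, against 14.5% of all genes), while DESeq2 called 3 among 869 genes in all. At an unadjusted p under 0.05 there were 8 of the 14 for DSS in RelaΔhepStat3Δhep mice, 11 between genotypes after DSS and 10 for the difference between responses, where 24.1%, 14.3% and 16.3% of all genes were, and DESeq2 called 7 in each, among 2348, 597 and 717 genes in all. Igf1, the main endocrine product of STAT5B in liver, ranged from 776 to 1367 CPM over the 12 livers and was not called in any comparison. In RelaΔhepStat3Δhep mice 1 was called by edgeR, where 2.46% of all genes fell: Elovl3, a fatty acid elongase, fell from 284, 60.0 and 29.1 CPM to 0.271, 0.120 and 0.283 CPM (log2 change -9.12 ± 1.82 SE, adjusted p = 0.0224). That call was lost without the second untreated or any 1 of the DSS-treated mice (adjusted p from 0.0661 to 0.101). In wild-type mice it stood at 4.80, 8.41 and 4.65 CPM on water and 52.2, 0.780 and 81.5 CPM on DSS, so that the third untreated mouse, with high Xist, lay beside the other 2. Elovl3 is known to be higher in male than in female mouse liver, as Sult3a1 and Cux2, other members of the list, are known to be higher in female liver. Sult3a1 stood at 3064, 1508 and 3072 CPM in the 3 DSS-treated RelaΔhepStat3Δhep mice and at 2060 CPM in the third untreated wild-type mouse, the 4 livers with high Xist, and at no more than 16.2 CPM in the other 8. Igf1 and Sult3a1 were chosen after their values were seen, and treatment and sex-linked transcripts cannot be told apart for these genes.

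Targets of interleukin-4 through STAT6 were tested for 13 of 15. Apart from Socs1, which is on this list too and was called with DSS in both genotypes, 0 others were called in wild-type and 1 in RelaΔhepStat3Δhep mice, so that calls came to 1 and 2 of the 13, where 0.453% and 4.57% of all genes were called higher. Chi3l3, a chitinase-like protein of macrophages activated by interleukin-4, rose from 0.239, 0.235 and 0.189 CPM to 19.8, 7.31 and 3.97 CPM in RelaΔhepStat3Δhep mice (5.54 ± 1.06 SE, adjusted p = 0.0158), a call lost without any 1 of the untreated mice (0.0560 to 0.0798). In wild-type mice it went from 1.35, 0.615 and 0.558 CPM to 4.36, 18.9 and 1.48 CPM, without overlap but short of the threshold (3.28 ± 0.92 SE, adjusted p = 0.140), and the responses were not shown to differ (adjusted p = 0.415). After DSS Ccl24, an eosinophil attractant, was higher in RelaΔhepStat3Δhep (8.59, 3.93 and 3.28 CPM) than in wild-type mice (1.15, 1.10 and 0.606 CPM), by 2.47 ± 0.46 (adjusted p = 0.0486), the 1 call among the 13 where 0.187% of all genes were called higher. That call was lost in each fit that left out 1 library but that without the first wild-type mouse (adjusted p from 0.0655 to 0.169). Interleukin-12 targets of STAT4 were tested for 9 of 10, and Irf1, which this list shares with the interferon targets, was the only call, for DSS in RelaΔhepStat3Δhep mice, where 4.57% of all genes were called higher.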

How the data were processed

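Whole-liver RNA (MN-NucleoSpin RNA, rRNA-depleted, paired-end Illumina) of 12 mice was measured. Per the labels and the study's methods, the authors trimmed reads with fastp, aligned them to mm9 with HISAT2 and counted with StringTie, and the deposited values are estimated counts per Ensembl gene, whole numbers and not normalized. The annotation version and the strand setting are not given in the sources used here. Symbols, exons and coordinates came from GENCODE vM1 (mm9), which gave a symbol to 28677 of 51609 rows.

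Counts of the 17652 genes kept by filterByExpr were TMM-scaled (factors 0.758 to 1.13) and fitted with edgeR 4.0.16 (robust quasi-likelihood, 1 model of 4 groups, R 4.3.3), with Benjamini-Hochberg adjustment over all genes and a threshold of 0.05. Values after ± are standard errors of log2 fold changes unless SD is named, and intervals are 95%. The script was tested on simulated data. Exact permutation tests were two-sided. Totals were 65879529 to 82850098 counts, and a floor of 3 counts covers counting error only.

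The members and all gene lists were chosen with earlier results of these data known. Genes named were the STAT genes, the 3 genes most correlated with each (log2(CPM + 0.5)), a fixed set of JAKs, receptors and inhibitors, and from each pathway list all genes called if 4 or fewer, otherwise the 4 with the smallest adjusted p. A few genes that this rule or the lists hold are not reported here. Alternatives were DESeq2 1.42.0, its size factors, 2 other filters, only the groups compared, a replicate block, Xist-coded sex and leaving out each library, plus leaving out the third untreated and first DSS-treated wild-type mouse together, chosen after seeing the data. The labels give each library as a separate liver sample, so p-values measure the spread between these mice.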

Additional observations from a re-analysis of the deposited data

Results flagged for a closer look

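The Y-linked transcripts differed in their DSS response between genotypes by the test of that difference: the log2 value was -11.61 for Ddx3y (edgeR adjusted p = 0.00475), -11.71 for Uty (0.00378), -10.18 for Kdm5d (0.00776) and -14.86 for Eif2s3y (0.0150). The 3 DSS-treated RelaΔhepStat3Δhep mice carry these differences, with at most 0.120 CPM of all 4 together, and treatment and sex-linked transcripts cannot be told apart in that group.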

How the results depend on the processing

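For the STAT genes and the counts over all genes, DESeq2 called 869, 2348, 337, 597 and 717 genes for DSS in wild-type, DSS in RelaΔhepStat3Δhep, genotype untreated, genotype after DSS and the difference between responses, where edgeR called 121, 1240, 11, 59 and 72. With sex read from Xist as a covariate the counts were 50, 4, 2, 5 and 4, and that covariate rests on the third untreated wild-type mouse, since high Xist otherwise marks 1 whole group. Fitting only the groups compared gave 21 genes for DSS in wild-type and 60 for genotype untreated. Leaving out 1 library gave 35 to 209, 241 to 838, 2 to 9, 11 to 392 and 21 to 220. Leaving out the third untreated and first DSS-treated wild-type mouse gave 55 for DSS in wild-type, 4 for genotype untreated and 369 for genotype after DSS.

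Stat3 was the only STAT gene called under any alternative. DESeq2 called it between genotypes after DSS (-1.99, adjusted p = 0.0218), as did the fit without those mice (-2.44, 0.0152), so the count of STAT genes called was 1 there, and 0 to 1 with 1 library left out, for DSS in wild-type and genotype after DSS. Directions turned for estimates that were smaller in size than their standard errors in the main fit. With the sex covariate these were Stat5b for DSS in RelaΔhepStat3Δhep (0.0842), Stat6 for genotype untreated (-0.0264) and Stat6 for the difference between responses. The last moved from -0.05 in the main fit to 0.34, which is not near 0. Without the 2 wild-type mice they were Stat5a for DSS in wild-type (0.0643), Stat6 for genotype untreated (-0.0272) and for the difference between responses (0.0447). With 1 library left out, Stat5a ran from -0.24 to 0.0713 for DSS in wild-type, from -0.0510 to 0.29 for genotype untreated and from -0.24 to 0.0754 for genotype after DSS, and Stat6 from -0.0275 to 0.14, from -0.0758 to 0.11 and, for the difference between responses, from -0.15 to 0.0427. The cause was not tested.

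Deviations of same-numbered libraries from their group means correlated weakly at most (18 pairs, r from -0.073 to 0.206, 5 over 0.1). Pairs of different numbers ran from -0.257 to 0.220, and 7 of 12 libraries correlated best with their own number. Whether the numbers mark pairs of mice was not tested. The replicate block gave 33 genes for genotype untreated and 128 for the difference between responses, where the main fit called 11 and 72.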
